A study of Mus musculus with 32 samples.

Results

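Chromatin that opened away from promoters between the late 1-cell and the early 2-cell stage, and was not found open after A-485 treatment, made up most of the open chromatin mapped in the DMSO-treated early 2-cell embryos. These lost distal peaks number 15464 of the 27693 ATAC-seq peaks of DMSO-treated early 2-cell embryos (55.8%), and the 4 peak lists together hold 58713 peaks. They were selected on measured values: a peak of the early 2-cell DMSO list that had no overlap with any peak of the late 1-cell DMSO list, and so was newly opened, that had no overlap with any peak of the early 2-cell A-485 list, and so was lost, and that lay more than 2.5 kb from every transcription start site of GENCODE M21. Their being new, lost and distal is therefore how they were chosen and not a result. Of the 15961 newly opened distal peaks, 96.9% met the rule, and the other 497, which were also found after A-485 treatment, are called kept distal peaks here. That share can depend on the length of the lists, since the A-485 early 2-cell list holds 13712 peaks against 27693. With both lists trimmed to equal length by strength, 8014 peaks met the rule. The trimming also shortens the DMSO list from which the peaks come, so this count alone does not show how far the share changes.

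A-485 blocks the catalytic activity of the histone acetyltransferases CBP and p300. Embryos were made by in vitro fertilization from oocytes and sperm of wild-type B6D2F1/J mice aged 6 to 8 weeks, and were cultured in KSOM medium with 10 µM A-485, or with DMSO alone as the control, from 4 to 20 hours post insemination (hpi). ATAC-seq, which inserts adapters into accessible DNA, was run at the late 1-cell and the early 2-cell stage. Total RNA-seq was run on zygotes and at both the early and the late 2-cell stage. Each stage and treatment had 2 libraries.

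Zygotic genome activation (ZGA) is the onset of transcription from the embryo's own genome, a minor wave of which precedes a major wave during the 2-cell stage in the mouse. CBP and p300 acetylate histone H3 at lysine 27 and other residues, and they act both at promoters and at enhancers, the distal elements that bind transcription factors and raise the activity of promoters in cis. An open distal site is a candidate for such an element, and openness alone does not show that it acts as one or on which gene.

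The peak lists were made from both replicates and hold no value per replicate, so single peaks could not be tested. Kinds of peaks are compared by shares, and the 95% Wilson intervals given with them hold counting error alone. The RNA libraries held between 13206163 and 32585987 expected counts. Gdf9, an oocyte-secreted growth factor, was present at 59.5 to 274 FPKM in every library. The other oocyte markers, Zp3 and Nlrp5, were at 7.07 to 26.7 and 26.3 to 363 FPKM. In early 2-cell DMSO libraries the embryo markers Zscan4d and Zfp352 were at 63.7 to 76.1 and 112 to 122 FPKM. In the A-485 libraries of that stage they were at 0.06 to 0.48 and 1.28 to 1.52. The 6 markers of cumulus cells were each at or under 0.49 FPKM in zygotes and early 2-cell embryos, and Lum and Inha were at 0 there. In late 2-cell embryos their sum was 7.12 to 10.9 FPKM in DMSO and 1.81 to 2.13 in A-485 libraries. Of this, Amhr2, which is nearest to 4 of the peaks, made 6.95 to 10.7 and 0.04 to 0.65, and Has2 made 0.17 to 0.19 and 1.03 to 1.13. Ptx3 and Inha were at 0 in DMSO and at 0.23 to 0.32 and 0.12 to 0.42 in A-485 libraries. Col1a2 was at or under 0.07 and Lum was at 0. The 3 sperm markers summed to 12.7 to 18.8 FPKM in zygotes, 5.59 to 8.44 at early and 1.21 to 3.09 at late 2-cell, and of the erythroid markers Hba-a1 was at or under 3.48 and Hbb-bt at 0. The part of these markers in the results below was not tested.

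The sequences of 8 lost distal peaks are shown first, because a short word recurs in most of them. Each is 200 bases of GRCm38 centred on the summit, read on the plus strand from RefSeq's copy of the assembly and written 5′ to 3′. Capitals mark matches to any of the 11 motifs that were searched. The first 6 are the strongest lost distal peaks of genes described below, and the last 2 are among the 5 with the highest fold enrichment of all.
Zfp54, chr17:21411507-21411706, upstream and in no gene: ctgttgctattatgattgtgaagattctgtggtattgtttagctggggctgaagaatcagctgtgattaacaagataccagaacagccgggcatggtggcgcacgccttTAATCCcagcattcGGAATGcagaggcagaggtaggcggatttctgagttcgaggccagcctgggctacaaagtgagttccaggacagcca
Rfpl4b, chr10:38850371-38850570, in no gene: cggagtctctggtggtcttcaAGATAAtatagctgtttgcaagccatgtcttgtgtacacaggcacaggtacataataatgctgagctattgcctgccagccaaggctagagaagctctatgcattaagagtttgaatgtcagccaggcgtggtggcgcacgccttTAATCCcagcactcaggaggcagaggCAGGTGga
Gldc, chr19:30185229-30185428, in no gene: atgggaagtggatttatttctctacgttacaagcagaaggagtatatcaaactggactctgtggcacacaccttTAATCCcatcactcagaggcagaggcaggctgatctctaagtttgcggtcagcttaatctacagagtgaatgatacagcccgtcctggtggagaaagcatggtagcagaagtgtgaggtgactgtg
Spop, chr11:95420069-95420268, in an intron of Spop: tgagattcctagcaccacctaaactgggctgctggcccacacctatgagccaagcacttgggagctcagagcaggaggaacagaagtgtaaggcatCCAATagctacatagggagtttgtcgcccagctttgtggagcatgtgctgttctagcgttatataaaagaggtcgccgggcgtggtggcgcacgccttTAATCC
Bptf, chr11:107037261-107037460, in an intron of Bptf: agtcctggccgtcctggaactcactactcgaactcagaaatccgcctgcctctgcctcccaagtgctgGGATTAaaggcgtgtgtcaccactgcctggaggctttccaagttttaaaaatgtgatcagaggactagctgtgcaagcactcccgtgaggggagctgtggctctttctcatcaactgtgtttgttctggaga
Rere, chr4:150462596-150462795, in an intron of Rere: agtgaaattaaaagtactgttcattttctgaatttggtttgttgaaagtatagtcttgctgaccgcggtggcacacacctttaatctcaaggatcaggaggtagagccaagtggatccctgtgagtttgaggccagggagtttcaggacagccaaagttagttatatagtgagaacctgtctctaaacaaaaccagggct
Lrguk, chr6:34093257-34093456, in an intron of Lrguk: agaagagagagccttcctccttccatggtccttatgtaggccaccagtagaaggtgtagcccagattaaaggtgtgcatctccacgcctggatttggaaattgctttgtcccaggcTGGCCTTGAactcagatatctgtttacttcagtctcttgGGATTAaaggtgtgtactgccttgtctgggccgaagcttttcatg
Mrln, chr10:70222294-70222493, in no gene: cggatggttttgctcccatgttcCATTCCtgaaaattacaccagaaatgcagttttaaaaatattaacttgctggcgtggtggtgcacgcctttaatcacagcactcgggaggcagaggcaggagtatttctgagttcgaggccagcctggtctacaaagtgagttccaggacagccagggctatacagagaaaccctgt
Of these 8 windows, those of Zfp54, Rfpl4b, Gldc, Spop, Bptf and Lrguk hold the word TAATCC or its reverse complement GGATTA, and those of Rere and Mrln do not.

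The word TAATCC is the core bound by homeodomain factors of the Otx, Crx and Obox families, of which the Obox genes are expressed in oocytes and 2-cell embryos. In windows of 300 bp around the summit, 12162 of the 15464 lost distal peaks held it on either strand (78.6%, 95% Wilson interval 78.0 to 79.3%). Kept distal peaks held it in 45.3% (40.9 to 49.7%), distal peaks already open at the late 1-cell stage in 35.4% (32.0 to 38.8%) and newly opened promoter peaks that were lost in 66.4% (64.6 to 68.1%). Over all early 2-cell DMSO peaks the share was 62.1%, and over the 8824592 tiles of 300 bp of the whole genome it was 11.8%. The intervals of the lost and the kept distal peaks do not overlap, but they hold counting error alone and not the spread between libraries.

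The word lay near the summit. Of the lost distal peaks, 53.2% had a match centred within 50 bp of the summit, against 22.5% of kept distal peaks, and the median distance of a match from the summit was 43 bp. Newly opened promoter peaks that were lost came nearer to them, with 44.1% and the same median distance. Distal peaks open since the late 1-cell stage also had this median distance, with 22.4% within 50 bp. More than 1 match was present in 15% of the lost distal peaks. The profile of matches along the window was flat within about 50 bp of the summit and fell on both sides, and it was higher in lost than in kept distal peaks across most of the central bins.

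**Figure D1:**
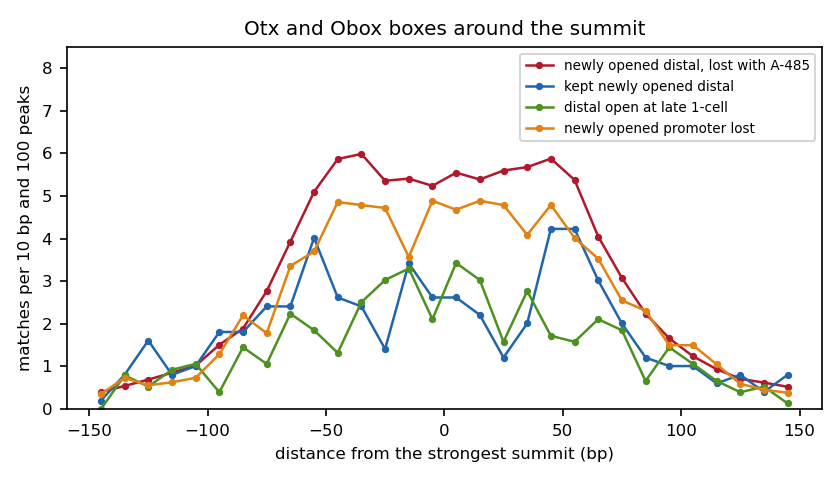
Matches to the Otx and Obox box on either strand, per 10 bp and 100 peaks (y axis), against the distance from the strongest summit in bp (x axis), for 4 kinds of early 2-cell DMSO peaks. In lost newly opened distal peaks the curve reached 5.99 matches per 10 bp and 100 peaks within 50 bp of the summit and lay under 1 at both ends of the window.

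The word lay mostly in repeats. Lower-case letters of the RefSeq genome, which mark repeats, covered 90.2% of the 14711 matches in lost distal peaks. The commonest letters around the word were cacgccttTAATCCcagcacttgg, where the commonest flanking letter at each place was present in 45.4 to 92.5% of matches, and 54.3% of all matches had the core cttTAATCCcagc. These letters are also found in B1 elements, short interspersed repeats common in the mouse genome. The core made up 53.9% of the matches in kept distal peaks and 38.0% of those in distal peaks open since the late 1-cell stage, so the word stood in the same context in both kinds of newly opened distal peak and was more frequent in the lost ones. In newly opened promoter peaks that were lost, the core made up 55.4% of matches, and 89.2% of matches were in lower case. No repeat annotation was used, and the class of repeat was not assigned peak by peak.

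Repeats made up much of the lost distal peaks. At least 50% of the window was in lower case in 63.7% of them, against 32.8% of kept distal peaks, 22.0% of distal peaks open since the late 1-cell stage and 29.4% of genome tiles. Newly opened promoter peaks that were lost lay between, at 48.1%. The summit itself lay in a repeat in 54.7% of lost and 29.0% of kept distal peaks. Among the 5617 lost distal peaks whose window was mostly outside repeats, 70.9% held TAATCC, mostly in the repeats that such windows also contain, since 671 of the 5617 (11.9%) had a match in upper case. Among the 9847 mostly within repeats, 83.1% held the word. How well reads can be placed in repeats bears on where peaks are found, and its part in these shares was not tested.

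Other motifs differed as well. The extended site TCAAGGNCA, the word bound by the orphan nuclear receptor Nr5a2 (N stands for any base), was found in 20.1% (19.4 to 20.7%) of lost and 9.05% (6.84 to 11.9%) of kept distal peaks, and in 2.6% of genome tiles. Newly opened promoter peaks that were lost held it in 15.8% (14.5 to 17.2%). Among lost distal peaks it was present in 23.7% of those mostly within repeats and 13.6% of those mostly outside them. The part of repeats in the difference between lost and kept distal peaks was not tested. The GC box GGGCGG of Sp and Klf factors went the other way, with 6.41% of lost, 18.9% of kept and 23.2% of the distal peaks already open at the late 1-cell stage. These shares all exceeded the 2.81% of genome tiles. The core site of Ctcf, the factor that bounds chromatin loops, was found in 0.401% (0.313 to 0.514%) of lost and 5.43% (3.76 to 7.79%) of kept distal peaks, with 0.152% in the genome. The Gata word AGATAA was present in 9.93% of lost and 5.03% of kept distal peaks, both under the 19.4% of genome tiles.

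For most of the remaining motifs, lost and kept distal peaks lay closer. The plain nuclear receptor site AGGTCA was found in 18.5% and 16.5% (genome 16.1%), the E-box CAGGTG bound by Zeb1 and Snai1 in 33.6% and 29.8% (genome 17.1%), and the Tead word GGAATG in 11.4% and 14.7% (genome 15.9%). The octamer ATGCAAAT of Pou factors was present in 0.925% and 1.01% (genome 2.61%). The CCAAT box of NF-Y differed more and was less frequent in lost distal peaks, at 24.7% (24.0 to 25.3%) against 32.8% (28.8 to 37.0%) of kept ones. Both shares lay under the 40.8% of genome tiles. The site of Dux, a factor that switches on 2-cell genes, was in 18 lost distal peaks (0.116%), under the 0.283% of genome tiles. It was in 0 of 497 kept ones, which allows a share of up to 0.604% by 3 counts of the total. The extended site holds the plain site where its N is T, and a match is not a bound site.

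**Figure D2:**
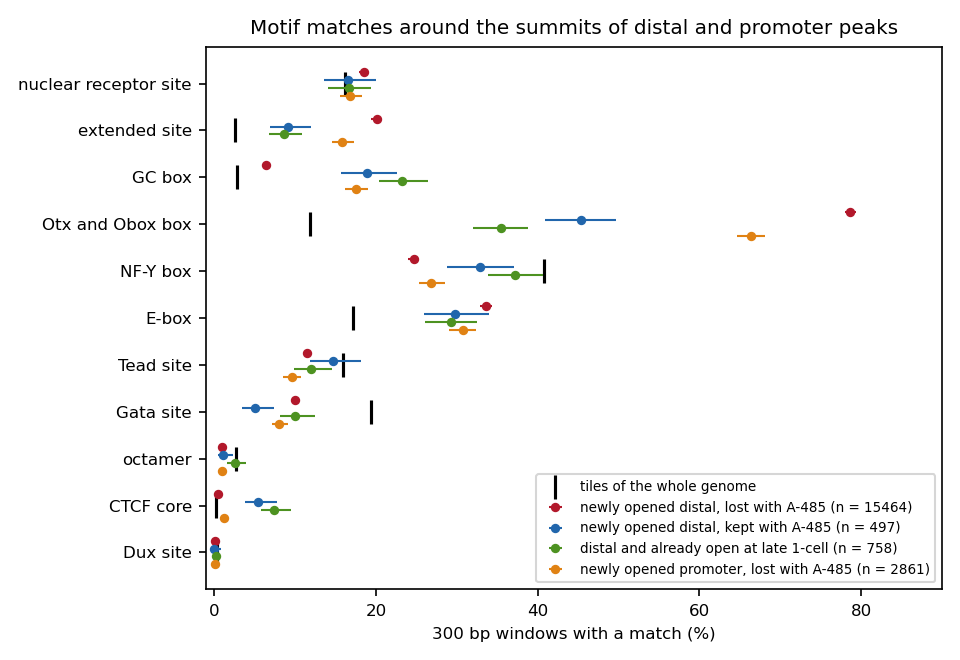
Share of 300 bp windows with at least 1 match on either strand (x axis, percent) for each motif (y axis). Points are the 4 kinds of early 2-cell DMSO peaks with 95% Wilson intervals, and black ticks are tiles of the whole genome. The Otx and Obox box stands out at 78.6% of lost newly opened distal peaks.

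Base composition went with these words. The median GC content of the window was 48.0% in lost and 51.7% in kept distal peaks, against 41.7% over the genome. Lost distal peaks held a median of 4 CpG sites per window and kept ones 6, and 7.37% of lost against 1.81% of kept distal peaks held none.

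Lost distal peaks were short and of middling strength in the DMSO list from which they were chosen. Their median width was 441 bp (quartiles 324 and 581 bp), against 498 bp for kept distal peaks, and 65.5% had a single summit. The median fold enrichment over background, as the authors' peak caller gave it, was 8.28 (quartiles 6.78 and 9.93) in lost and 8.78 in kept distal peaks. The strongest, 5386 bp from the start of Mrln, reached 26.54. When they were put in 4 equal groups by fold enrichment, TAATCC was present in 73.3%, 78.2%, 80.0% and 83.1% from the weakest to the strongest group, and the extended site in 17.9%, 19.1%, 20.9% and 22.3%.

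The edges of the rule were sharp. The lost distal peak nearest to a start lay 2501 bp away, and the farthest newly opened lost peak that was not counted lay at 2500 bp. The median gap from a lost distal peak to the nearest early 2-cell A-485 peak was 25629 bp, the smallest was 13 bp, and 59 of them had an A-485 peak within 500 bp. Among kept distal peaks the smallest overlap with an A-485 peak was 7 bp, and 62 of the 497 were overlapped over less than 50% of their length.

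The list of A-485-treated late 1-cell embryos was not used to choose the peaks. Of the lost distal peaks, 41 overlapped a peak of that list (0.265%, 0.196 to 0.359%), against 74 of the 497 kept ones (14.9%, 12 to 18.3%). Newly opened distal sites that were kept were thus found open at the late 1-cell stage under A-485 more often than those that were lost. Whether this difference exceeds the spread between libraries was not tested.

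Lost distal peaks lay in gene bodies more often than the genome at large. Of the 15464, 8641 overlapped the body of an annotated gene (55.9%, 55.1 to 56.7%), while gene bodies cover 44.8% of the genome. A peak counted when any base of it overlapped, and by midpoints 51.4% lay in a protein-coding gene, which cover 38.2% of the genome. Kept distal peaks were in gene bodies in 40.6% (36.4 to 45.0%) and distal peaks open since the late 1-cell stage in 37.1% (33.7 to 40.6%). Most of the overlap was intronic: 49.9% of the lost distal peaks were in a gene body and on no exon, 6.0% were on an exon, and 44.1% were in no gene. Exons cover 4.7% of the genome. Newly opened promoter peaks that were lost were in gene bodies in 82.8%, but these lie next to starts by their definition.

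The rule itself favours long host genes, since a peak over 2.5 kb from every start can lie only in a gene longer than that and longer genes offer more room. The midpoints of 7942 lost distal peaks fell in 4376 protein-coding genes with a median length of 52905 bp, against 17403 bp over all 21951 protein-coding genes and 20644 bp over the 19937 longer than 2.5 kb, and 2553 of these genes held a single one. At least 5 were held by 206 genes and at least 10 by 14 genes. Rere, a corepressor of the atrophin family on chr4:150281646-150621966, held 21, the predicted gene Gm20388 held 19, Smg6, a factor of nonsense-mediated decay, held 15, and Armh3 held 13. For 67.1% of the peaks with a host gene, the nearest start was that of the host.

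Some of the lost distal peaks lay close to each other. Of the lost distal peaks, 6846 (44.3%, 43.5 to 45.1%) had another one within 0.0125 Mb, the distance used to stitch peaks into clusters, against 2.41% of kept distal peaks and 4.22% of distal peaks open since the late 1-cell stage among their own kind. The latter kinds are far fewer, at 497 and 758 peaks, so that fewer neighbours are available to them. Of the 2861 newly opened promoter peaks that were lost, 20.7% had another of their own kind within that distance. The share of lost distal peaks also depends on how far down the list peaks were counted, and was 25.3% among those in the upper 50% by -log10 q. Stitching gave 8618 single peaks, 1931 pairs, 743 clusters of 3 to 4 and 101 clusters of 5 or more, the last with 571 peaks (3.69%) and a median span of 26247 bp. With gaps of up to 5 kb, 25.0% had a neighbour, and with gaps of up to 50 kb, 77.8%. Peaks in larger clusters were weaker: the median fold enrichment was 8.83 for single peaks, 7.54 in clusters of 2 to 4 and 7.02 in clusters of 5 or more. The share in gene bodies hardly moved with cluster size, at 55.7%, 56.1% and 55.5%.

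**Figure D3:**
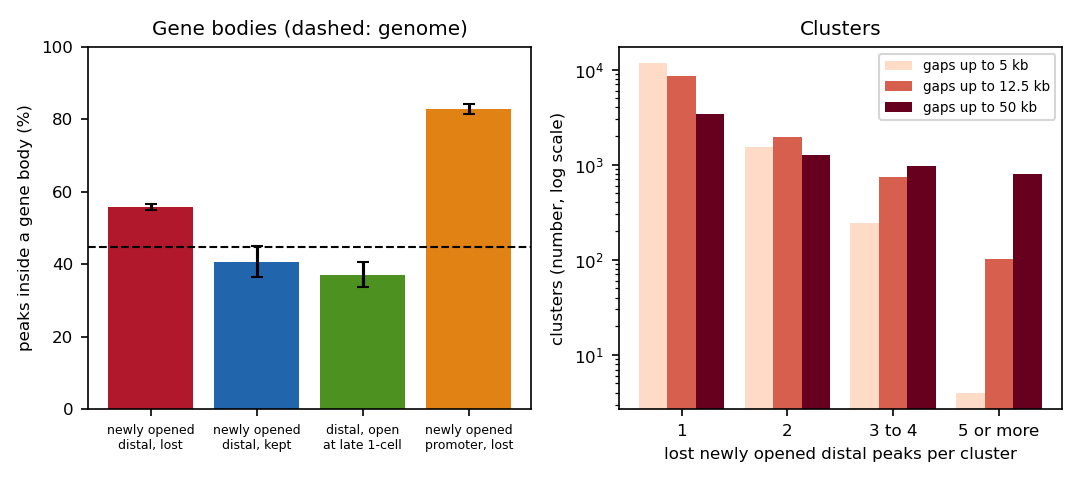
Left, share of peaks that overlap a gene body (y axis, percent) for 4 kinds of early 2-cell DMSO peaks, with 95% Wilson intervals and the share of the genome in gene bodies as a dashed line. Right, number of clusters of lost newly opened distal peaks (y axis, log scale) by their number of peaks (x axis) at 3 stitching gaps. Lost distal peaks exceed the dashed line at 55.9% against 44.8%, and clusters of 5 or more are the fewest at each gap.

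The largest clusters held 9 peaks each. On chr11:94062552-94126869, 9 lost distal peaks with fold enrichments of 7.44 to 16.02 covered 64318 bp, of which 8 lay within Spag9, a scaffold protein of JNK signalling, and 6 had its start as the nearest. On chr17:26672217-26727976, 9 were shared between Atp6v0e, a subunit of the vacuolar proton pump, and Crebrf, a regulator of CREB3 factors. On chr13:55640486-55686451, 7 of 9 lay in Ddx46, an RNA helicase of the spliceosome. The next largest, with 8 peaks each, lay beside Zfp217, a zinc finger factor, on chr2:170151204-170199330 and in and next to Bptf, the large subunit of the NURF chromatin remodeller, on chr11:107111700-107162853.

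Across chromosomes the density ranged from 2.57 lost distal peaks per Mb on chromosome X and 3.73 on chromosome 3 to 11.9 on chromosome 11, and chromosome Y held 1. Chromosome 11 also carried 13.4 protein-coding genes per Mb and chromosome X 5.54. Lost distal peaks made up 49.8% to 59.7% of all early 2-cell DMSO peaks on the other chromosomes, lowest on chromosome 7 and highest on chromosome 12. The median distance to the nearest start was 9409.5 bp (quartiles 5307 and 17804 bp), 52.7% lay within 10 kb, 42.2% between 10 and 50 kb, and 220 (1.42%) beyond 100 kb. They lay downstream of the nearest start in 51.9% of cases. A promoter peak that was kept under A-485 lay within 50 kb of 46.7% of them.

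The starts nearest to the lost distal peaks belonged to 9840 genes, of which 6486 had 1 such peak, 2053 had 2, 1064 had 3 to 4, 230 had 5 to 9 and 7 had 10 or more. They comprised 5683 protein-coding genes, 1390 genes of long noncoding RNAs and 2767 of other types, mainly pseudogenes and small RNAs. Nearest genes were expressed more often than genes in general: 50.5% of the 9791 found in the RNA tables reached a mean of 1 FPKM in DMSO-treated zygotes, early 2-cell or late 2-cell embryos, against 26.8% of 55144 genes, and this share was 84.7% of the 235 genes with 5 or more peaks. A nearest gene is a matter of position only, and 40.1% of the lost distal peaks had a nearest gene that stayed under 1 FPKM at both 2-cell stages.

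The RNA response of these genes was tested with edgeR's quasi-likelihood test on rounded expected counts, and a gene was called when its Benjamini-Hochberg adjusted p over all genes tested was under 0.05, its change at least 2-fold and its mean at least 1 FPKM in either group. Less RNA per embryo and fewer embryos or cells with the RNA cannot be told apart in these bulk samples. In zygotes, 1 of 5472 nearest genes tested fell, against 0.0657% of all 18258 genes tested. An unadjusted p under 0.05 was found for 248 of the 5472 nearest genes, against 1073 of all 18258. The gene that fell was Usp17lc, a deubiquitinase of a multicopy family, at 4.01 and 3.99 FPKM in DMSO and 0.53 and 0.59 in A-485 libraries, with 1 peak. DESeq2 called 2, and the count reached 9 when A-485 replicate 2 was left out and 7 without A-485 replicate 1. The DMSO replicates left out in turn gave 5 without replicate 1 and 1 without replicate 2.

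At early 2-cell, when the peaks were mapped, few of the nearest genes responded and their share was close to that of all genes. Of 6018 nearest genes tested, 544 fell (9.04%) and 16 rose (0.266%), against 7.9% down and 0.402% up among all 20872 genes tested. Since nearest genes were more often expressed, the same was counted among genes with a mean of at least 1 FPKM: 12.3% of the 4411 nearest genes fell and 0.363% rose, against 12.7% and 0.647% of all 12977. The median log2 fold change was -0.04 over nearest genes and 0.0 over all genes. In 535 of the 544, both A-485 libraries lay under both DMSO libraries in FPKM. Called genes were chosen for a change of at least 2-fold, so this separation is not a result about nearest genes.

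The number of lost distal peaks did not go with more down-regulated genes at this stage. Among expressed genes, 13.4% fell of those nearest to 1 such peak, 11.9% of those with 2, 10.7% of those with 3 to 4, 6.63% of those with 5 to 9 and 0 of the 7 with 10 or more by edgeR or DESeq2, against 12.9% of the genes nearest to none. Of the 7, 1 had an unadjusted p under 0.05, against 4873 of all 20872 genes tested. By distance of the closest peak, 13.0% fell at up to 10 kb, 10.4% at 10 to 50 kb, 14% (7 of 50) at 50 to 100 kb and 19% (4 of 21) beyond 100 kb, which is no steady order. Genes that held a lost distal peak within their body fell in 8.03% and those that held 5 or more in 2.15% (4 of 186).

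At late 2-cell, after A-485 had been washed off, the nearest genes were called down more often and up less often than genes in general. Of 6467 tested, 1530 fell (23.7%) and 437 rose (6.76%), against 16.8% down and 10.5% up among all 22822 genes tested, and 14.0% and 12% among the 16355 nearest to no lost distal peak. Among genes with a mean of at least 1 FPKM, 29.4% of 5197 nearest genes fell and 8.41% rose, against 23.8% and 15% of all 16062. The median log2 fold change was -0.13 over nearest genes and 0.28 over all genes. The median FPKM in DMSO was 4.66 over the nearest genes tested and 0.945 over those nearest to none, and the part of this level was not tested. RNA encoded by mitochondria was 5.43% and 5.35% of the counts in the A-485 libraries and 2.44% and 2.35% in the DMSO libraries at this stage, and its part was not tested. Scaled to the mitochondrially encoded genes, which shifts the log2 fold change by a median of -0.97 over all genes, 43.0% of nearest genes fell and 2.86% rose, against 30.1% and 5.16% of all. Scaled to total counts, with a shift of 0.19, 21.2% fell and 9.03% rose against 15.1% and 12.9%.

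The share that fell at late 2-cell was higher for genes with 1 to 9 lost distal peaks than for those with none, and did not rise further beyond 2 peaks. The difference in share itself was not tested. Among expressed genes, 27.6% fell of those with 1 lost distal peak, 32.4% with 2, 32.1% with 3 to 4, 31.4% with 5 to 9 and 0 of the 7 with 10 or more by edgeR or DESeq2. Of these 7, 4 had an unadjusted p under 0.05, against 10702 of all 22822 genes tested. Of the expressed genes nearest to none, 21.1% fell. The share that rose was 10.5%, 6.42%, 4.71% and 2.62% in the same order up to 9 peaks, against 18.1% of those nearest to none. Over the genes tested, the median FPKM in DMSO was 3.03, 6.07, 10.4 and 15.6 in that order, against 0.945 for those nearest to none. A gene under 1 FPKM in DMSO counts as expressed here only if its mean was higher after A-485. The part of expression level in these shares was not tested. With the closest peak within 10 kb, 32.4% fell, at 10 to 50 kb 21.9%, at 50 to 100 kb 21% of 62 genes and beyond 100 kb 20.8% of 24. Of the 108 expressed genes nearest to a peak in a cluster of 5 or more, 44 fell (40.7%) and 6 rose.

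**Figure D4:**
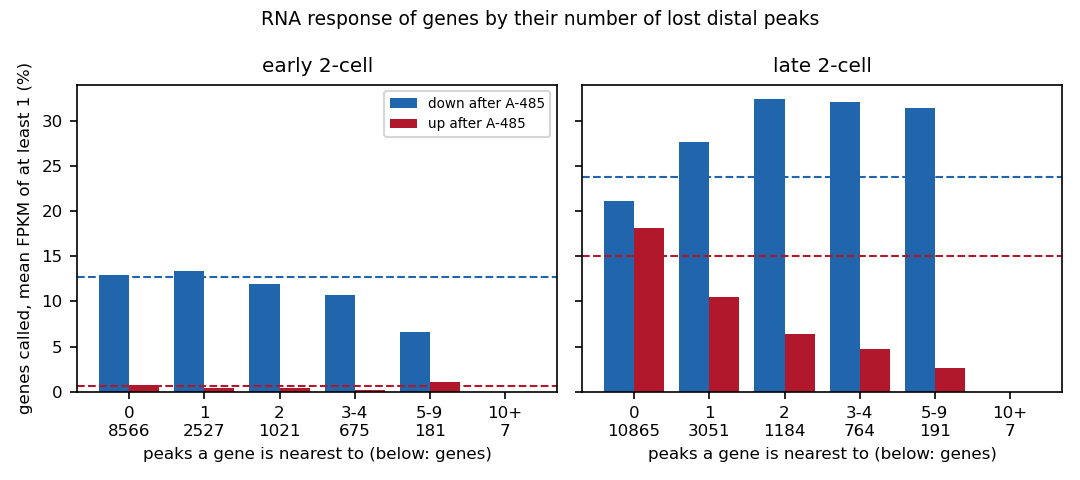
Share of genes with a mean of at least 1 FPKM that were called down or up after A-485 treatment (y axis, percent), by the number of lost newly opened distal peaks to which a gene's start is nearest (x axis, with the number of genes below). Dashed lines mark all such genes tested, at 12.7% down for early and 23.8% down for late 2-cell. At late 2-cell, bars for 1 to 9 peaks exceed the dashed line for down-regulated genes.

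The promoter of the gene moved with these shares as well. Among expressed late 2-cell genes whose own promoter peak was kept under A-485, 33.3% fell with no lost distal peak, 38.5% with 1 to 2 and 36.1% with 3 or more. Where the promoter peak was lost, the shares were 36.4%, 39.6% and 42.6%, and where the promoter had no peak, 12.7%, 18.9% and 22.3%. In each promoter state the shares were higher with lost distal peaks than without, and all shares with a promoter peak exceeded those without one. Whether these shares differ beyond the spread between libraries was not tested. At early 2-cell the shares were 13.1%, 13.2% and 8.99% with the promoter peak kept, 18%, 19.6% and 10.4% with it lost and 12%, 11.1% and 10.5% without one.

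Genes nearest to kept distal peaks were few. Of the 249 expressed at late 2-cell, 27.3% fell and 11.2% rose, and of the 95 that were nearest to no lost distal peak, 22.1% fell and 14.7% rose. These groups share the same libraries as those above, and whether their shares differ beyond the spread between libraries was not tested.

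Calls at the 2-cell stages overlapped. Of the nearest genes, 440 fell at both stages, which is 80.9% of those down at early and 28.8% of those down at late 2-cell, and 10 fell at early and rose at late 2-cell. Over all genes, 1222 fell at both stages, or 74.1% of those down at early and 32.0% of those down at late 2-cell, and 42 fell and then rose. Lost distal peaks nearest to a gene that fell at early 2-cell numbered 886 (5.73%), and 2768 (17.9%) were nearest to one that fell at late 2-cell. Those 2768 peaks held TAATCC in 77.5% and had a median fold enrichment of 7.4, and the 617 nearest to a gene that rose held it in 78.1% with 8.39.

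Among the 10 expressed genes nearest to most lost distal peaks, only Bptf was called at either stage. Rere had 15, Btaf1, an ATPase that removes TBP from DNA, and Dtnb, a dystrobrevin, had 11, and Bcas3, Ambra1, a regulator of autophagy, Spop, a substrate adaptor of a cullin ubiquitin ligase, and the adhesion molecule Pecam1 had 10. Rere was at 28.8 and 24.0 FPKM in DMSO and 26.5 and 24.4 in A-485 early 2-cell libraries, and at 24.4 and 27.4 against 14.8 and 19.9 at late 2-cell. The A-485 libraries were the lower at late 2-cell, and the log2 fold change of -0.76 (SE 0.147, edgeR adjusted p = 0.00148) was short of 2-fold. Btaf1 was at 42.7 and 38.7 FPKM in DMSO and 28.1 and 30.4 in A-485 late 2-cell libraries, with -0.67 (SE 0.12). The other genes of the 10 lay between -0.62 and 0.47 at late 2-cell apart from Bptf. Scaled to the mitochondrially encoded genes, 8 of these 9 genes other than Bptf passed at late 2-cell, from -1.04 for Ago3 to -1.74 for Rere, and Pecam1 did not.

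Bptf had 9 lost distal peaks and lay next to the fifth of the largest clusters. It was at 98.7 and 100 FPKM in DMSO and 90.8 and 91.0 in A-485 early 2-cell libraries, with a log2 fold change of -0.04. At late 2-cell it was at 120 and 125 FPKM in DMSO and 54.0 and 43.0 in A-485 libraries and fell by 1.39 on the log2 scale (SE 0.104, edgeR adjusted p = 6.19e-07). The groups overlapped at neither stage. Ago3, an Argonaute protein, and the tyrosine kinase Abl1 also had 9 and were not called.

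The genes with the largest falls at early 2-cell, among called genes with at least 3 lost distal peaks and 10 FPKM, were almost silent in zygotes and after A-485. Calcoco2, an autophagy receptor with 4 such peaks at 3254 to 9906 bp, was at 50.6 and 38.0 FPKM in DMSO and 0.12 and 0.18 in A-485 libraries (log2 fold change -8.24, SE 0.321, edgeR adjusted p = 4.39e-09). Zfp54, a zinc finger gene with 3, was at 35.6 and 35.3 FPKM in DMSO and 0.32 and 0.11 in A-485 libraries (-7.28, SE 0.266). The groups overlapped in neither gene, which the rule for naming them required.

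Calcoco2 reached 13.3 and 6.49 FPKM in A-485 and 149 and 167 in DMSO libraries at late 2-cell, and fell by 4.02 on the log2 scale. Zfp54 reached 6.65 and 5.8 against 20.5 and 28.1 and fell by 2.21. Gm29290, a long noncoding RNA with 5 lost distal peaks, was at 11.3 and 12.1 FPKM in DMSO and 0.11 and 0.1 in A-485 early 2-cell libraries, the latter from at most 1 count. The processed pseudogenes Gm5435, with 5, and Kat2b-ps, with 3, were at 43.4 to 52.2 and 29.7 to 30.5 FPKM in DMSO and at or under 0.28 in A-485 libraries. Reads of such copies can also belong to their parent genes, so these values are uncertain.

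At late 2-cell the largest falls by the same rule included Gldc, the glycine decarboxylase of the glycine cleavage system, and Rfpl4b, a RING finger protein. Gldc, with 3 lost distal peaks outside its body, was at 28.3 and 37.8 FPKM in DMSO and 1.17 and 0.57 in A-485 libraries (log2 fold change -5.86, SE 0.282, edgeR adjusted p = 2.18e-08). Rfpl4b, with 5, was at 34.2 and 41.4 FPKM in DMSO and 0.27 and 0.95 in A-485 libraries (-6.1, SE 0.434, edgeR adjusted p = 4e-07). In neither gene did the groups overlap, which the rule also required. At early 2-cell Gldc fell by 4.27 and Rfpl4b fell by 4.31 on the log2 scale, where DESeq2 did not call Rfpl4b.

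Prelid2, with 3 lost distal peaks, was at 9.74 and 11.0 FPKM in DMSO and 0.53 and 0.3 in A-485 late 2-cell libraries, the latter from at most 3 counts. The pseudogene Rpl10a-ps1 was at 24.4 and 17 against 0.0 and 0.19 FPKM. Gm5435 was at 161 and 137 FPKM in DMSO and 3.25 and 3.64 in A-485 libraries at this stage.

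A smaller number of genes with at least 3 lost distal peaks rose. Ahnak, a giant scaffold protein with 4 such peaks, was at 1.33 and 0.89 FPKM in DMSO and 3.66 and 4.25 in A-485 early 2-cell libraries, and at 0.66 and 0.57 against 17.5 and 16.2 at late 2-cell (log2 fold change 4.37, SE 0.204, edgeR adjusted p = 1.97e-08). Capzb, a subunit of the actin capping protein, was at 3.89 and 5.27 FPKM in DMSO and 20.5 and 16.9 in A-485 late 2-cell libraries (1.84, SE 0.278), and Scfd1, a factor of vesicle transport, at 4.73 and 2.9 against 11.7 and 14.9 (1.8, SE 0.319). Scaled to mitochondrially encoded genes, Capzb and Scfd1 were at 0.85 and 0.84 and not called.

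The antisense gene Gm4419, with 5 lost distal peaks, was at 1.33 and 3.05 FPKM in DMSO and 20.2 and 8.75 in A-485 late 2-cell libraries. The library kit keeps the strand, but how strand was counted is not given in the sources used here, so reads of antisense genes and their partners may be mixed. The pseudogene Gm12851, also with 5, was the only gene past the rule for rises at early 2-cell, at 0.0 and 0.8 FPKM in DMSO and 12.6 and 19.6 in A-485 libraries, and was listed at 0 in both DMSO libraries at late 2-cell and at 50.5 and 27.9 after A-485.

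The genes beside the largest clusters were called mainly at late 2-cell. Zfp217, next to a cluster of 8, was at 28.3 and 26.4 FPKM in DMSO and 4.25 and 4.18 in A-485 early 2-cell libraries, and fell by 2.68 on the log2 scale (SE 0.107, edgeR adjusted p = 4.84e-09). At late 2-cell it was at 59.7 and 59.9 against 21 and 15.7 FPKM and fell by 1.96. Atp6v0e was at 46.2 and 53.9 FPKM in DMSO and 12.2 and 19.1 in A-485 late 2-cell libraries and fell by 1.92 (SE 0.273), with -0.66 and no call at early 2-cell.

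Spag9 fell by 1.11 at late 2-cell, from 9.97 and 8.19 to 6.62 and 5.01 FPKM, and this call was lost without DMSO replicate 1 (-0.95) and on total-count scaling (-0.92). At early 2-cell it was at -0.72 and not called, and passed without A-485 replicate 2 (-1.31). Crebrf (-0.94), Ddx46 (-0.89) and B230219D22Rik (-0.84) were short of 2-fold at late 2-cell, and Crebrf passed without A-485 replicate 1 (-1.19). The antisense gene Gm11715 was at 2.24 and 1.37 FPKM in DMSO and 0 in both A-485 early 2-cell libraries, a call that was lost without A-485 replicate 1 or 2 or without DMSO replicate 1. At late 2-cell it was at 1.23 and 5.25 against 0 and 0, a call lost without DMSO replicate 2. B230206L02Rik had at most 2 counts in any library, and Gm17619 is not analysed here in RNA.

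**Figure D5:**
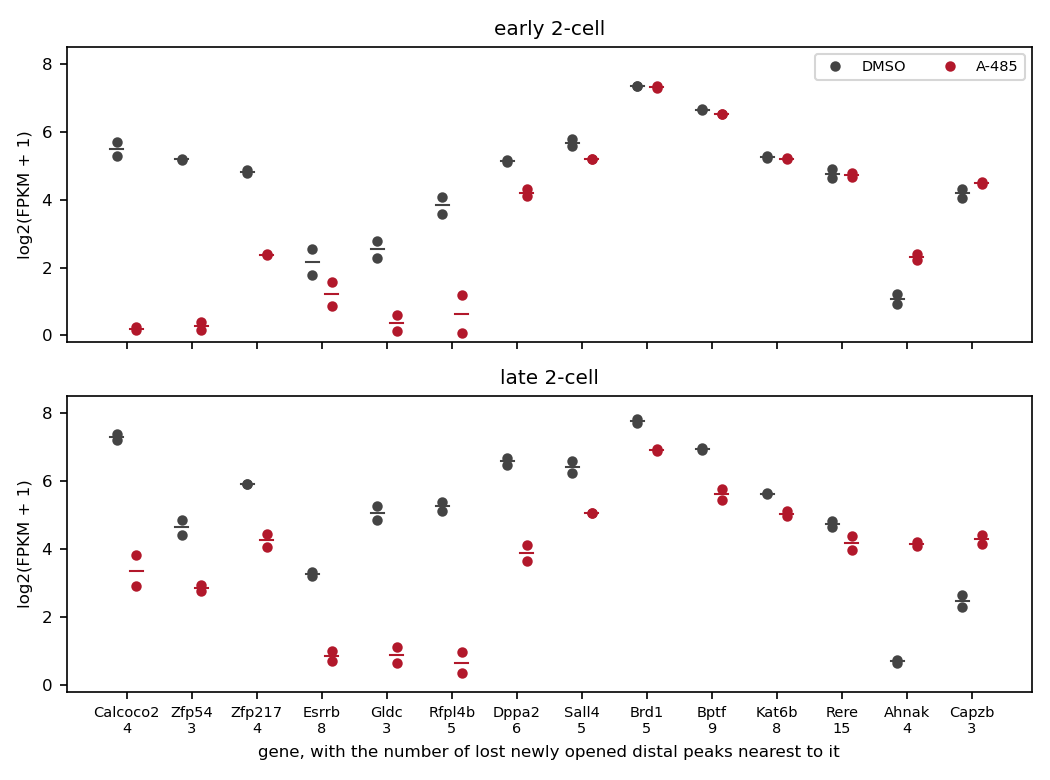
RNA level of 14 genes nearest to lost newly opened distal peaks, as log2(FPKM + 1) (y axis), in early 2-cell (top) and late 2-cell embryos (bottom). Points are libraries, lines are the means of 2 libraries, and the number under each gene is its number of such peaks. Calcoco2 and Zfp54 are near 0 after A-485 at early 2-cell, while the treatments overlap at early 2-cell and separate at late 2-cell for Brd1 and Kat6b.

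Gene groups known for roles in the early embryo were described next, with 17.7% of all 55450 annotated genes and 25.9% of the 21951 protein-coding ones nearest to a lost distal peak as the background. Since most genes of the groups code for proteins, the latter is the closer one. Of the 12851 protein-coding genes expressed at a 2-cell stage, a larger share of 35.4% was nearest to one. None of these backgrounds accounts for gene length. The calls in the groups stand beside the 7.9% of all genes tested that fell at early 2-cell, and the 16.8% that fell and 10.5% that rose at late 2-cell. Of 33 nuclear receptors, ligand-regulated and orphan transcription factors, 16 were nearest to at least 1, and 3 of 16 tested fell at early and 4 of 15 at late 2-cell. Of the 15 tested that were nearest to none, 0 fell at early, and 2 fell and 2 rose at late 2-cell. Esrrb, an orphan nuclear receptor of pluripotent cells, had 8 lost distal peaks, 5 of them in its body. It was at 2.46 and 4.85 FPKM in DMSO and 1.96 and 0.81 in A-485 early 2-cell libraries (log2 fold change -1.42, SE 0.312, edgeR adjusted p = 0.00961), a call that was lost without DMSO replicate 2. At late 2-cell Esrrb was at 9.01 and 8.17 against 0.63 and 0.98 FPKM, with no overlap, and fell by 3.61 (SE 0.297, edgeR adjusted p = 1.38e-06). Rxra, the retinoid X receptor and partner of other receptors, had 5 and was at -0.75 at late 2-cell, and passed 2-fold without A-485 replicate 2 (-1.01).

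Of 20 Klf and Sp factors, which bind the GC box, 8 were nearest to a lost distal peak, of which 2 fell at early and 3 at late 2-cell, while of the 12 that were not, 4 fell at early, and 6 fell and 1 rose at late 2-cell. Of 41 regulators of pluripotency and the first lineages, 18 were, of which 2 of 17 fell at early 2-cell, and 6 of 18 fell and 1 rose at late 2-cell. Of the 22 tested that were not, 10 fell at early, and 4 fell and 12 rose at late 2-cell. Sall4, a zinc finger factor of early lineages with 5, was at 53.9 and 47.1 FPKM in DMSO and 35.9 and 35.9 in A-485 early 2-cell libraries (-0.36), and at 74.4 and 95.9 against 32.5 and 32.6 at late 2-cell, where it fell by 1.53 (SE 0.14, edgeR adjusted p = 3.57e-06). Tead1, a partner of the Hippo cofactors, had 5 and lay at 0.15 and 0.04, and Prdm14, with 5, was at or under 0.97 FPKM in every 2-cell library.

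Of 44 histone acetylation enzymes and readers, 22 were nearest to a lost distal peak, and 1 fell at early and 7 at late 2-cell, against 1 and 10 of the 22 that were not. Brd1, a subunit of acetyltransferase complexes, had 5, was at 164 and 164 FPKM in DMSO and 157 and 164 in A-485 early 2-cell libraries, and at 210.3 and 229 against 118 and 122 at late 2-cell. Its fall of 1.02 was at the edge of 2-fold and lay at -0.83 on total-count scaling, -0.96 with DESeq2, -0.97 without A-485 replicate 1 and -0.98 without DMSO replicate 1. Kat6b, an acetyltransferase with 8, was at 49.7 and 48.0 FPKM in DMSO and 30.6 and 33.8 in A-485 late 2-cell libraries (-0.69, SE 0.116), and Ncor1, a corepressor that recruits a deacetylase, had 7 and lay at 0.1 and 0.08.

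Of 83 ribosome biogenesis factors, 36 were nearest to a lost distal peak, of which 14 fell at early and 34 at late 2-cell, and of the 47 that were not, 14 and 44 fell. Their median log2 fold changes at late 2-cell were -2.81 and -2.53. Gnl3l, a nucleolar GTPase with 5, was at 8.05 and 9.12 FPKM in DMSO and 4.24 and 6.73 in A-485 late 2-cell libraries and fell by 1.83 (SE 0.237). This fall was fitted on counts, while the mean FPKM, 8.59 against 5.49, fell by less than 2-fold, so its size is uncertain. At early 2-cell Gnl3l was at 0.99 and 1.79 against 0.19 and 1.61 FPKM, where the groups overlapped and the means of 1.39 and 0.9 also differed by less than 2-fold. Its call there was lost without DMSO replicate 2.

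Of 40 genes of the 2-cell program found in the annotation, 15 were nearest to a lost distal peak, and 13 of these fell at early and 12 at late 2-cell, against 18 and 17 of the 25 that were not. Dppa2, an activator of this program, had 6, 3 of them in its body. It was at 34.7 and 33.4 FPKM in DMSO and 18.8 and 16.2 in A-485 early 2-cell libraries (-0.92, SE 0.126), which passed 2-fold without A-485 replicate 1 (-1.03). At late 2-cell it was at 102 and 88.7 against 16.6 and 11.6 FPKM, with no overlap, and fell by 2.99 (SE 0.186, edgeR adjusted p = 1.3e-07).

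Of 37 maternal-effect genes, 11 were nearest to a lost distal peak, of which 1 fell at early and 5 at late 2-cell. Of the 26 that were not, 0 fell at early, and 1 fell and 1 rose at late 2-cell. Of 19 genes of DNA methylation and demethylation, 8 were, of which 2 fell at early 2-cell, and 1 fell and 1 rose at late 2-cell. Of the 11 that were not, 1 fell at early, and 2 fell and 2 rose at late 2-cell. The study chose its list of early 2-cell minor ZGA genes from embryos treated with the transcription inhibitor DRB and their DMSO controls, so the direction of this list is not independent evidence. Of its 557 genes in the annotation, 148 (26.6%) were nearest to a lost distal peak. This share is close to that of all protein-coding genes and under the 35.4% of those expressed at a 2-cell stage. Of the 147 tested, 116 fell at early 2-cell, against 320 of the 409 that were not nearest to one. The medians of the log2 fold change were -3.94 and -4.06.

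The study's Polycomb (PcG) targets, developmental genes, were chosen in part for having no expression in preimplantation embryos, so their silence is not a result. Nearest genes were more often expressed, so the share of PcG targets among them is not independent of this choice. Of 1907 PcG targets, 112 (5.87%) were nearest to a lost distal peak. At early 2-cell 18 of these could be tested, and at late 2-cell 6 of 31 rose. Among PcG targets nearest to no lost distal peak, 45 of 313 rose.

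Of the genes next to the 5 lost distal peaks with the highest fold enrichment, 4 were tested by edgeR and none was called at a 2-cell stage, while Gm14393 was too low to be tested at either. Tti1, a cofactor of PIKK kinases, lay 44888 bp from a peak of 23.06-fold enrichment and was at 31.0 and 29.3 FPKM in DMSO and 31.1 and 32.8 in A-485 early 2-cell libraries. With scaling to the mitochondrially encoded genes it was called at late 2-cell (-1.53, against -0.55). Armc10, with a peak of 22.32 on an exon of the gene, was at 20.2 and 25.2 against 30.9 and 29.9 FPKM, with a log2 fold change of 0.46. Mrln, Gm14393 and Lrguk, next to peaks of 26.54, 22.27 and 22.02, were at or under 2.69 FPKM in every 2-cell library.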

How the data were processed

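Total RNA-seq and ATAC-seq of A-485- and DMSO-treated embryos were used, 2 libraries for each stage and treatment. For ATAC-seq, the authors deposited a list of reproducible peaks for each combination of stage and treatment, called by the ENCODE pipeline over both replicates. The deposited columns used hold a score, the fold enrichment (a ratio) and the -log10 q-value. For RNA, the authors deposited RSEM expected counts and FPKM per gene, and per the labels STAR 2.7.8a and RSEM 1.3.1 were used. The submitters' processing notes name GRCm38, and 0 peaks passed a chromosome end of it. How reads with several matches were treated is not given in the sources used here.

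Lines with the same position were joined. A peak overlapped another at 1 bp or more, and distances were taken to the nearest of 132758 transcript starts of GENCODE M21. Promoter peaks lay within 1 kb of a start. Windows of 300 bp around the strongest summit were read from RefSeq's GRCm38.p6. Genes of the tables were joined by identifier (55144 of 55385). Expected counts were rounded to whole numbers, genes with under 10 counts over the 4 libraries of a comparison were left out, and A-485 was compared with DMSO at each stage by the quasi-likelihood test of edgeR 4.0.16 in R 4.3.3, with TMM scaling. Standard errors come from the F statistic. Nothing in the labels says that the libraries of a group came from separate cultures, so p-values measure the spread between these libraries, which may be technical. Scripts were tested on simulated counts and peaks. DESeq2 1.42.0 was an alternative.

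Genes were named by a rule: the 10 expressed genes nearest to most of the peaks (ties by summed fold enrichment), the 5 largest changes in each direction among called genes with at least 3 of the peaks, 10 FPKM and no overlap between groups, the genes beside the 5 largest clusters, listed genes nearest to at least 5 of the peaks, and the genes of the 5 strongest peaks. Genes outside this rule were chosen after their values were seen. The peaks, gene lists and motifs were chosen with earlier results of these data known. The TSA-treated samples and the CUT&RUN samples were not used here.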

Additional observations from a re-analysis of the deposited data

Results flagged for a closer look

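Among the genes nearest to lost newly opened distal peaks, 9 were called in opposite directions at early and late 2-cell with both libraries of each treatment apart in FPKM at both stages. They are given here because every library moved one way at early and the other way at late 2-cell, and the difference between the stages itself was not tested. They were chosen after their values were seen. Of the genes nearest to such peaks that fell at early 2-cell, 1.84% were called up at late 2-cell, against 2.55% over all genes, whatever the overlap of the libraries. All 9 were lower after A-485 at early 2-cell and higher at late 2-cell, with log2 fold changes by edgeR of -1.25 and 1.23 for 2810403D21Rik, -1.55 and 2.08 for Enc1, -1.75 and 1.13 for Exph5, -1.35 and 2.79 for Fam186a, and -1.19 and 1.55 for Ndufv3. Those of Nupr1 were -5.92 and 1.38, of Sowahc -1.48 and 1.59, of Tbx20 -3.01 and 1.16, and of Zfp867 -1.5 and 1.43. Most of these late 2-cell calls rest on the scaling. When libraries were set to equal mitochondrial RNA, a shift of -0.97 in the median over genes at that stage, Enc1 (1.1) and Fam186a (1.81) kept the call and the other 7 lost it, at 0.15 to 0.61.

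Fam186a had 2 lost distal peaks and was at 2.73 and 2.27 FPKM in DMSO and 1.0 and 1.12 in A-485 early 2-cell libraries, and at 2.08 and 2.29 against 15.4 and 12.2 at late 2-cell. Tbx20, a T-box factor with 1, was at 11.6 and 4.73 against 0.89 and 1.14 FPKM at early 2-cell, and at 5.6 and 2.75 against 6.72 and 7.72 at late 2-cell. Nupr1, a stress-induced nuclear protein with 2, had at most 1 count in the A-485 early 2-cell libraries. Duxbl3 was also called down and then up, but its groups overlapped at early 2-cell. The 1 gene called up and then down, Zc3h11a, had more counts but a lower FPKM after A-485 at early 2-cell, so its direction there is uncertain.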

How the results depend on the processing

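With the distance raised to 10 kb, 7322 peaks remained in the set, with only the upper 50% of the list by -log10 q 6945, and with both early 2-cell lists trimmed to equal length by strength 8014. The upper 50% and the trimming also shorten the DMSO list itself. The other 5 alternatives gave 11980 to 16879. The share in gene bodies was 51.5% for protein-coding genes only, 57.4% for the upper 50% by -log10 q and 49.4% beyond 10 kb. The share with a neighbour was 25.0% within 5 kb, 77.8% within 50 kb and 25.3% for the upper 50% by -log10 q, a set with fewer peaks.

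Nearest genes down in zygotes numbered 2 with DESeq2 and without the FPKM cutoff, 3 with scaling to the mitochondrially encoded genes and with all 12 libraries in one fit, 4 without the filter on low counts, 0 for host genes and 0 for peaks in the upper 50%, and 1 to 9 with 1 library left out. At early 2-cell, 262 host genes fell and 6 rose, 302 genes of the upper 50% fell, and 25 rose without the filter on low counts. Left-out libraries gave 500 to 549 down and 12 to 22 up. At late 2-cell, scaling to the mitochondrially encoded genes gave 2779 down and 185 up, and the upper 50% of peaks gave 928 down and 234 up. Host genes up numbered 223, and left-out libraries gave 1385 to 1526 down and 411 to 445 up. Host genes and the upper 50% of peaks test fewer genes, and the cause of the other changes was not tested.

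With the replicate block the counts were 4 down in zygotes, 585 down and 22 up at early 2-cell, and 1527 down and 439 up at late 2-cell. Deviations of libraries with the same number correlated at 0.0205, -0.0115 and -0.0134, so the numbers pair nothing. Of 900 values of named genes under the alternatives, 866 kept their side of the call, 16 lost it, 18 gained it and 0 reversed. Of the gains, 14 came with scaling to the mitochondrially encoded genes. Depth limits the values of Gm29290, Prelid2 and Nupr1, which rest on few counts in a group.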
